A study of Mus musculus with 3 samples.

Results

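RAW264.7 cells, a mouse macrophage line, were exposed to Lactiplantibacillus plantarum LOC3, a lactic acid bacterium isolated from tea leaves, and were then challenged with lipopolysaccharide (LPS), the bacterial wall component that activates Toll-like receptor 4 (TLR4). The array of these cells is compared here with the array of RAW264.7 cells challenged with LPS alone, and the question is which gene classes differ beyond the cytokine, chemokine, surface marker and interferon genes on which the study dwelt. All cells compared had received LPS for 3 h, and the dose is given as 50 ng/mL in the methods but as 100 ng/mL where its choice is described. The bacteria had been present for 12 h by the sample labels and for 24 h by the methods. An array of cells given another strain, LOC1, before LPS is used beside them. No array of cells given LOC3 without LPS was analysed here, so what the bacterium does without LPS cannot be told apart from what it does to the LPS response.

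Each condition was measured on 1 one-colour Agilent array, so there is no replicate check, and no SD, test or p-value is given for any difference. A probe entered the comparison if its signal was well above background on both arrays and no outlier flag removed it, and 26368 of the 56605 probes did so. They stand for 17595 of 37007 gene names, each represented by its brightest probe. Signals were well above background for 51.9% of probes on the LPS array and for 47.8% on the LOC3 + LPS array. Values are the deposited intensity of each array, and differences are on the log2 scale after each array was divided by its 75th percentile, an intensity of 555 with LPS and of 516 with LOC3. The words rose and fell are kept for genes at least 2-fold apart. Spot noise, read from probes printed at least 8 times on each array, gave a technical SD of 0.06 for a difference of 262 bright probes and of 0.31 for 9 dim ones. The error that the scanner tables give for each spot put the differences of the 30 genes ranked below at 0.204 to 0.231, bright ones included. Variation between cultures is part of neither. The macrophage origin of the cells was visible in the arrays, since all 10 macrophage markers were well above background on each, from an intensity of 575 for Mertk to 244528 for Lyz2 with LPS. None of 5 epithelial markers was well above background with LOC3 and 1 was with LPS. Of 5 fibroblast markers 4 were detected, at intensities of at most 81.8. Of 4 T cell markers on the array 3 were well above background on both arrays, Lck at 3086 with LPS and 4812 with LOC3, Cd3e at 396 and 451 and Cd3d at 66.4 and 42.9, while Cd2 was not. Of 5 B cell markers 2 were detected with LPS and 1 with LOC3, at intensities of at most 41.2. The part of these markers in the results was not tested. A fall of a transcript can come from fewer cells that carry it or from less RNA per cell, and these cannot be told apart in such samples.

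With LOC3, 296 genes rose, which is 1.68% of the genes compared, and 419 fell, which is 2.38%. At 1.5-fold the shares were 6.34% higher and 8.25% lower, with 1115 and 1451 genes. The median of all genes was 0.04. The shift was not the same at all levels of signal, since the median was -0.06 in the dimmest of 4 equal groups of genes and 0.12 in the brightest. Another choice of scale, the median of each array in place of its 75th percentile, moves every difference up by 0.18 and turns the balance to 519 genes higher and 247 lower. The number of genes on each side therefore rests on the scale, and the genes and lists described next are read against the median of all genes. Of the 117 genes past 2-fold that had more than 1 detected probe, all probes changed the same way for 98, and the other 598 rest on 1 probe. The genes nearest to the threshold among those that could be ranked were Lcn2 and Zbp1, just inside at 1.00006 and 1.0017, and Tmem67 and Clec4n, just outside at 0.99926 and 0.99698.

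**Figure D1:**
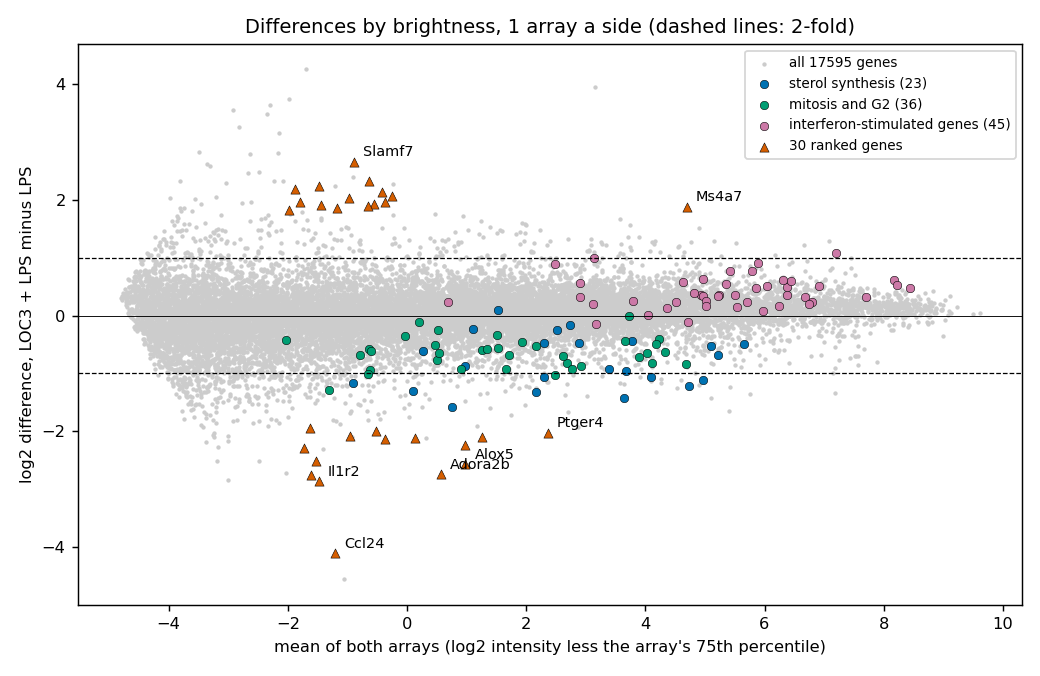
Log2 difference between the LOC3 + LPS and LPS arrays for 17595 genes (vertical axis) against their mean signal (horizontal axis, log2 of intensity over the 75th percentile of each array), with 1 array a side and dashed lines at 2-fold. Members of the sterol synthesis and mitosis lists lie mostly under 0 across the whole range of signal, interferon-stimulated genes lie mostly above 0 and are bright, and the 30 ranked genes (triangles) lie outside the dashed lines. Grey points farther out were not ranked.

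Macrophages read LPS through TLR4, which starts an early wave of transcription through NF-kB and MAP kinases and a later wave through secreted type I interferon. The response is held in check by phosphatases, decoy receptors and G protein-coupled receptors that raise cyclic AMP, and it is accompanied by changes in sterol and eicosanoid metabolism and by a slowing of the cell cycle. Earlier contact with another microbe can shift the strength of each of these branches, and strains of lactobacilli are compared for this ability.

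Genes were ranked after the dimmest of these groups, names without an approved symbol, genes that the study named for its arrays and genes whose probes changed in different directions had been left out, which left 7989 genes. Among these the largest rise with LOC3 was that of Slamf7, a SLAM family receptor of activated leukocytes. Its intensity was 118 with LPS and 699 with LOC3, a rise of 2.66 or 6.34-fold, read by a probe at chr1:173569299-173569358 of mouse build mm9. Prickle1, a planar cell polarity protein, went from 159 to 742 and rose by 2.33, while its dimmer probe was at only 0.17. The difference of Prickle1 thus rests on 1 of its probes, and it was 1.25 for the mean of both. Il7r, the interleukin 7 receptor, went from 227 to 893 and rose 4.22-fold. Rgs1, which shortens signals from G protein-coupled receptors, went from 193 to 684 and rose 3.82-fold. Inhba, the subunit of activin A, went from 105 to 369 and rose 3.79-fold. The brightest gene of this group was Ms4a7, a tetraspanning membrane protein of macrophages, which went from 7481 to 25680.5 and rose 3.69-fold, with its other probe at 1.94. All other ranked rises started from dim signals on the LPS array, with intensities of at most 227. They were those of Sprr2h, Arhgap27, Osbp2, Zfp12, Aldh1b1, Comp, U90926, St18 and Tubg2, between 1.83 for Tubg2 and 2.24 for Sprr2h, and Arhgap27, at 2.18, was at 1.53 with normexp. Among these, Osbp2 binds oxysterols, Aldh1b1 is a mitochondrial aldehyde dehydrogenase and Comp is a matrix protein of cartilage.

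The largest fall among the ranked genes was that of Ccl24, an eosinophil chemokine typical of alternatively activated macrophages. Its intensity was 1001 with LPS and 53.9 with LOC3, 17.3-fold lower, read by a probe at chr5:136046485-136046544 of mm9. Il1r2, the decoy receptor for interleukin 1, went from 536 to 68.7 and fell by 2.86. Saa2, an acute phase apolipoprotein, went from 471 to 64.6 and fell by 2.76, and because Saa1 and Saa2 are nearly identical in sequence the probe may read both. Adora2b, the low-affinity adenosine receptor, went from 2134 to 297 and was 6.69-fold lower. Alox5, the first enzyme of leukotriene synthesis, went from 2667 to 419 and was 5.93-fold lower. These falls started from clearly brighter signals than most of the rises. Pi16, a peptidase inhibitor, went from 2373 to 469, and Ptger4, the EP4 receptor for prostaglandin E2, from 5749 to 1315, falls of 4.71-fold and 4.07-fold. Both detected probes of Ptger4 gave similar values, -2.02 and -1.91. Cbr2, a carbonyl reductase, went from 1274 to 273, with probes at -2.12 and -2.05. The probes of Rab3il1, a Rab exchange factor, differed more, from -2.66 to -0.28. The remaining ranked falls were Asb2, a ubiquitin ligase subunit, Pcsk2, a prohormone convertase, Slc14a1, a urea transporter, Igfbp4, which binds insulin-like growth factors, the kinase Dmpk and the pseudogene Speer5-ps1. They lay between -2.52 for Asb2 and -1.95 for Speer5-ps1. The dim side of these falls depends on the background correction and on the constant it adds. Normexp, a model of background and signal, was run with an offset of 50 added to every intensity. Such an offset by itself makes differences of dim signals smaller, and its part was not tested apart from that of the model. With normexp the difference was -3.11 for Ccl24, or 8.66-fold, -2.06 for Il1r2 and -1.90 for Saa2. Asb2 was then at -1.77, Pcsk2 at -1.58 and Speer5-ps1 at -1.36.

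**Figure D2:**
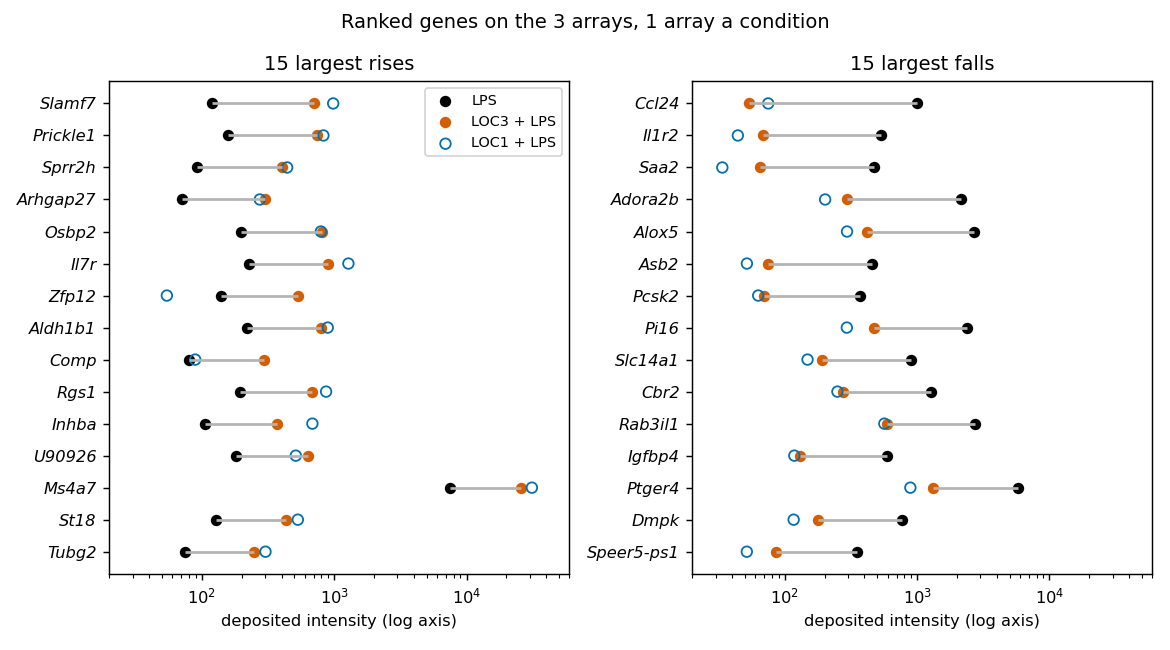
Deposited intensity (horizontal axis, log scale) of the 15 genes with the largest rise and the 15 with the largest fall, 1 point for each array. Ms4a7 is the brightest of the rises, Ccl24 has the widest gap between LPS and LOC3 + LPS, and the LOC1 + LPS point (open) lies on the other side of the LPS point for Zfp12.

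Where these genes stood in cells that had not met LPS can be read from the log2 ratios to unchallenged macrophages that were deposited by the authors, which list only values past 2-fold. Ratios that would put the unchallenged signal too low to be detected on the LPS array are left out here. An unlisted ratio does not show that a gene was within 2-fold of unchallenged cells. Cbr2 has no ratio on any array, though its difference of -2.12 is wider than values within 2-fold on both arrays would allow. Ms4a7 was listed at 1.22 with LPS and 3.14 with LOC3 + LPS, so a gene already higher with LPS was higher again. Rgs1 was listed at 1.46 and 3.43 in the same order, and Osbp2 at 1.65 and 3.83. Il7r ran the other way, listed at -1.71 with LPS and not listed with LOC3 + LPS. Among the falls, Adora2b was listed at 3.97 with LPS and only 1.27 with LOC3 + LPS, and Ptger4 at 1.63 with LPS and not at all with LOC3 + LPS. Alox5, Il1r2, Pi16 and Igfbp4 had no listed ratio with LPS, but -2.85, -3.07, -2.29 and -2.92 with LOC3 + LPS. For Ccl24 the ratio was -1.32 with LPS and -5.40 with LOC3 + LPS, and for Rab3il1 -3.20 and -5.27. The falls thus held genes that LPS had raised, genes listed as lowered with LOC3 + LPS but not with LPS alone, and genes that LPS had already lowered.

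Of the 46 gene lists examined, the lowest median was that of sterol synthesis. This pathway builds cholesterol from acetyl-CoA by way of mevalonate, squalene and lanosterol, and its enzymes are switched on together by the transcription factor SREBP2 when membrane cholesterol is low. Of 26 listed genes 23 were compared, and 9 of them fell, none rose, against 2.38% of all genes lower. At 1.5-fold 14 of the 23 were lower, and 22 were under 0. The median of the list was -0.87, and it was -0.68 when arrays were scaled by their medians. Mvd, which decarboxylates mevalonate diphosphate, went from an intensity of 1612 with LPS to 502 with LOC3 and fell by 1.58. Hmgcs1, a synthase at the start of the mevalonate branch, was bright at 22613 and went to 9051, 2.33-fold lower. Hsd17b7, a ketoreductase that acts after lanosterol, went from 11295 to 3922, 2.68-fold lower. Cyp51, the lanosterol demethylase, went from 3946 to 1475 and fell by 1.32. The falls lay at early and at late steps of the pathway, though not at every step, and were not limited to bright or dim genes. Idi1 and Lss, which act on isopentenyl diphosphate and on squalene epoxide, fell by 1.06 and 1.07. Msmo1, Nsdhl and Dhcr7, which act late, were at -1.11, -1.30 and -1.17. Under median scaling Idi1, Lss, Msmo1 and Dhcr7 came to lie within 2-fold, at -0.87, -0.89, -0.93 and -0.99. Within 2-fold were Sqle at -0.68, Fdps at -0.49 and the regulator gene Srebf2 at -0.47. The only member above 0 was Tm7sf2 at 0.10, a reductase that shares its step with another enzyme. Lists of other branches of lipid metabolism had medians closer to that of all genes. Fatty acid synthesis and desaturation had a median of -0.13 over 15 genes with none past 2-fold, and cholesterol efflux genes one of 0.05 over 14. Abcg1, an exporter of cholesterol to high density lipoprotein, went from 5162 to 12364 and rose 2.57-fold.

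Relative to unchallenged macrophages, Mvd was listed at -2.47 and Hmgcs1 at -1.21 with LOC3 + LPS, while neither had a listed ratio with LPS alone. Dhcr7 was listed in both, at -1.65 with LPS and -2.79 with LOC3 + LPS.

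**Figure D3:**
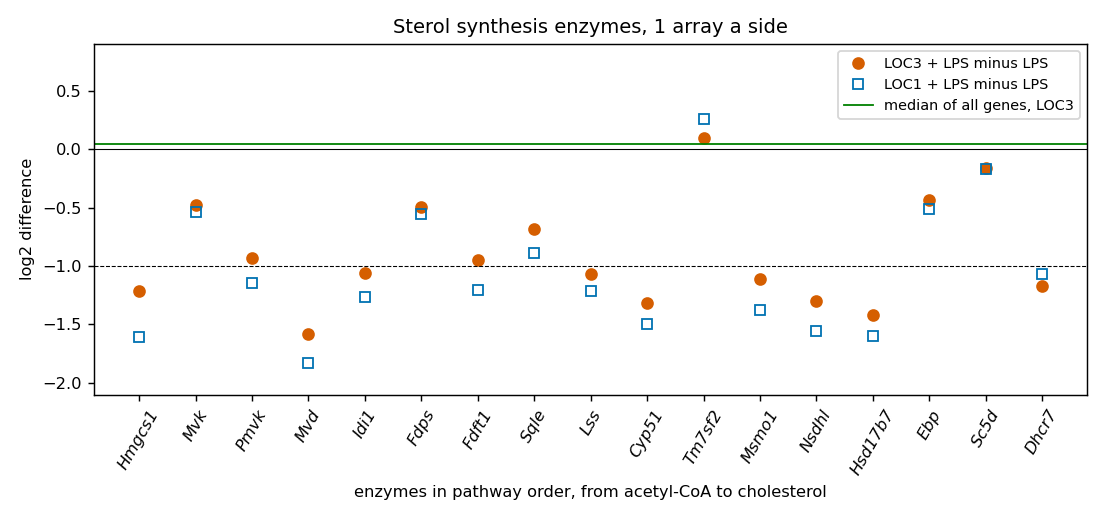
Log2 difference from the LPS array (vertical axis) of enzymes of sterol synthesis, in pathway order along the horizontal axis, for LOC3 + LPS (filled) and LOC1 + LPS (open), which share that LPS array. Every enzyme plotted except Tm7sf2 lies under the median of all genes for both strains, and Mvd is lowest at -1.58 with LOC3.

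The stretches ahead of the start sites of the sterol genes that fell most among those with a RefSeq promoter are shown because these genes moved together. That of Hmgcs1 was added by choice, and no other promoter of the list held the sterol element described next. The sequences are those of RefSeq on build GRCm38.p6 and cover 250 bases before the start, read 5′ to 3′ on the strand of the gene. Capitals mark the CCAAT box, searched as CCAAT, and a sterol regulatory element, searched as TCACNCCAC, both on either strand and with no overlap between them. The second motif was chosen after the values had been seen.
Mvd, chr8:122443423-122443672, minus strand: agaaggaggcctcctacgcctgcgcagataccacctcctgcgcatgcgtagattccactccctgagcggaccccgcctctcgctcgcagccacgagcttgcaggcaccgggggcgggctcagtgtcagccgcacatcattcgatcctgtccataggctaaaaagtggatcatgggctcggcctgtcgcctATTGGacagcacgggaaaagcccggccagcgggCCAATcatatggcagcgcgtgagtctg
Hmgcs1, chr13:119690101-119690350, plus strand: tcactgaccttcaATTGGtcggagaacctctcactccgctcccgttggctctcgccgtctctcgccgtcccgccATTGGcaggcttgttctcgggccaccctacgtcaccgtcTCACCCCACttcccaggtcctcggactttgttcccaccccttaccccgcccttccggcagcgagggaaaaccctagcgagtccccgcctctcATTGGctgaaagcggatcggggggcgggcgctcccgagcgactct
Hsd17b7, chr1:169969206-169969455, minus strand: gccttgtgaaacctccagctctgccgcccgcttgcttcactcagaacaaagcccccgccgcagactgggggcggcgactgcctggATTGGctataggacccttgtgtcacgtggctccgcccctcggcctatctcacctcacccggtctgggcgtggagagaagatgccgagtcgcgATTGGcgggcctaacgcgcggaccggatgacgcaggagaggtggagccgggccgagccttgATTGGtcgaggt
Hmgcs1 held 3 CCAAT boxes and the sterol element, which began 137 bases before the start, Mvd held 2 CCAAT boxes and Hsd17b7 held 3. Over the 22 promoters that the table gives for 18 of the sterol genes, 16 held a CCAAT box, 72.7% against 33.8% of all 32851 promoters. The SP1 motif, searched as GGGCGG and not marked above, was in 18 of the 22, 81.8% against 32.7% of all. The sterol element in this strict spelling was in 1 of the 22 and in 1.05% of all promoters. A match describes these letters only.

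Genes of mitosis and the G2 phase had a lower median too, by smaller steps. They encode cyclins, kinases and motor proteins that carry cells from a finished genome copy to division. All 36 were compared and all 36 were under 0, with a median of -0.64, and of -0.46 under median scaling. Only 3 fell past 2-fold, but 21 of the 36 were past 1.5-fold lower, against 8.25% of all genes. Kif11, a motor that separates the spindle poles, went from 348 with LPS to 134 with LOC3 and fell by 1.28, but it was within 2-fold with normexp, at -0.94. Anln and Kif23, which act in the cleavage of the cell, were at -1.02 and -1.01, though the probes of Kif23 ran from -1.01 to -0.16, and under median scaling both genes were within 2-fold, at -0.84 and -0.82, as was Tk1 at -0.92. Ccnb1, the mitotic cyclin, went from 5177 to 2549, a difference of -0.92 that stayed just within 2-fold. Values of -0.92 for Cdk1, -0.86 for Plk1, -0.82 for Aurka and -0.64 for Mki67 were of the same order. The median of DNA replication genes lay closer to that of all genes. It was -0.14 over 35 genes, and it was above 0, at 0.05, under median scaling. Tk1, a thymidine kinase, fell by 1.10, whereas Cdt1, which licenses replication origins, went from 6359 to 12895 and rose 2.18-fold. Cdkn2c, an inhibitor of the G1 kinases, fell by 1.47 from an intensity of 147, and it was the member past 2-fold among 21 genes of the G1 phase.

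Linker histones, which close nucleosomes into denser chromatin, were a class chosen after the values had been seen. Of 8 compared, 3 fell, against 2.38% of all genes. H1f5 went from 6417 to 1871, 3.19-fold lower, H1f3 from 1184 to 404, 2.73-fold lower, and H1f2 from 1515 to 608, 2.32-fold lower. Histone genes resemble each other in sequence, so that their probes may share signal. Id1, an inhibitor of DNA-binding factors that bone morphogenetic proteins induce, went from 7879 to 1923 and fell by 1.93, while Id2 and Id3 stayed at -0.10 and 0.22. This gene too was singled out after its value was seen.

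The promoter of Kif11 is shown as that of the mitotic gene with the largest fall, with capitals for the CCAAT box and for the cell cycle homology region, searched as TTTGAA and chosen after the values had been seen.
Kif11, chr19:37376132-37376381, plus strand: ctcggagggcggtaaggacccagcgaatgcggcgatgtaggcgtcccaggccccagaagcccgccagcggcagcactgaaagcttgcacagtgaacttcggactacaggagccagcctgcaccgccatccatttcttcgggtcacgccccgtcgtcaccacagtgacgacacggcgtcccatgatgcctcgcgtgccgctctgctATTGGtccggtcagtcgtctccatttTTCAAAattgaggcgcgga
Both motifs lay close to the start, beginning 45 and 19 bases before it. A CCAAT box was in 25 of the 32 promoters of this list, 78.1% against 33.8% of all promoters. TTTGAA was in 11 of 32 against 15.99% of all. The SP1 motif GGGCGG was also in 25 of the 32, against 32.7% of all.

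Interferon-stimulated genes outside those that the study named were mostly above 0 and mostly within 2-fold. These genes are switched on after secreted type I interferon has bound its receptor, and many of them block steps of viral replication. Of 45 compared, 43 were above 0, 11 were past 1.5-fold higher, against 6.34% of all genes, and none was past 1.5-fold lower. The median was 0.35, against 0.12 for the brightest of the 4 equal groups of genes, in which many of these genes lie, and it was 0.23 relative to genes of like brightness, that is, after the median difference of genes with a similar signal had been subtracted, a setting chosen after the values had been seen. Cmpk2, a mitochondrial nucleotide kinase, was very bright, with 56135 on the LPS array and 110162 with LOC3, and rose 2.11-fold, but it was within 2-fold after quantile normalization, at 0.93. Zbp1, a sensor of Z-form nucleic acid, went from 3462 to 6452 and rose, at the very edge of the threshold. Within 2-fold, Mx1 was at 0.91, Herc6 at 0.90, Bst2 at 0.77, Ifit2 at 0.76 and Irf7 at 0.62. Relative to unchallenged macrophages Cmpk2 was listed at 9.48 with LPS and 10.60 with LOC3 + LPS, so the difference between the arrays was small beside the response to LPS itself. The guanylate-binding proteins, interferon-induced GTPases that attack microbe-containing vacuoles, had a median of 0.51 over 11 genes. Gbp11 went from 842 to 2004 and was the member of this family that rose.

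Bst2, which tethers budding virus to the cell, and Ifi47, an immunity-related GTPase, are shown as list members past 1.5-fold whose promoter held a short form of the interferon-stimulated response element, searched as AAANNGAAA on either strand and printed in capitals.
Bst2, chr8:71537473-71537722, minus strand: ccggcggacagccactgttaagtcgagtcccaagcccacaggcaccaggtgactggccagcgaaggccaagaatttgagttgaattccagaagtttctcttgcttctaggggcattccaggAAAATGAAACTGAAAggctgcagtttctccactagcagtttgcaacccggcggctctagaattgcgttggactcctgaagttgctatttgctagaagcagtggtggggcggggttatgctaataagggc
Ifi47, chr11:49076337-49076586, plus strand: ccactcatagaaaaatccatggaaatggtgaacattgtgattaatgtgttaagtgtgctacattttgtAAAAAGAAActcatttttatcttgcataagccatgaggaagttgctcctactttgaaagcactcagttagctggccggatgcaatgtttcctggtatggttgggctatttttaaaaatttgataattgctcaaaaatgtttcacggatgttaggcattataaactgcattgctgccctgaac
Bst2 held 2 matches that overlap each other and Ifi47 held 1. The motif was in 22 of the 45 promoters that the table gives for this list, 48.9%, and in 9.37% of all promoters.

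Receptors that raise cyclic AMP were among the largest falls. In macrophages adenosine and prostaglandin E2 act through such receptors to restrain tumour necrosis factor and to favour interleukin 10. Of 24 genes of adenosine and cyclic AMP signalling 3 fell and 1 rose, against 2.38% of all genes lower and 1.68% higher. The median, -0.05, was close to that of all genes. Besides Adora2b and Ptger4, described above, Prkar2b, a regulatory subunit of protein kinase A, went from 217 to 84.5 and fell by 1.26, but it was within 2-fold with normexp, at -0.83. Nr4a1, an orphan nuclear receptor among the early genes that cyclic AMP and LPS induce, went from 1627 to 3269 and rose 2.16-fold. In the eicosanoid pathway 3 of 21 genes fell, against 2.38% of all genes, and none rose, with a median of 0.02. Ptgs1, the constitutive cyclooxygenase, went from 7283 to 2598, 2.61-fold lower, and joined Alox5 and Ptger4. Ptgs2, the inducible cyclooxygenase, was at 0.31, and its intensity went from 16461 to 19035.

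Among receptors and ligands of the interleukin 1 and tumour necrosis factor families, 5 of 21 genes fell, against 2.38% of all genes, and none rose. The list as a whole was split, with 10 genes above 0 and 11 below, and its median of -0.23 was above 0, at 0.14, in the deposited ratios and, at 0.06, with no filter on dim probes. Il1r2 was followed by Tnfsf14, a ligand of lymphotoxin receptors, which went from 185 to 23.9, close to the lowest detectable signal. Il1rl1, the receptor for interleukin 33, went from 534 to 172 and fell by 1.53. Il18rap, a chain of the interleukin 18 receptor, fell by 1.20, and Il1f9, which encodes interleukin 36 gamma, by 1.05. With the normexp background correction Il18rap and Il1f9 stayed within 2-fold, at -0.66 and -0.61, and Tnfsf14 was at -1.36 in place of -2.85. All 5 were dim to moderate on the LPS array, from 129 for Il18rap and 185 for Tnfsf14 to 536 for Il1r2. In the list of the response to interleukin 4, which drives alternative activation, 3 of 12 genes fell, against 2.38% of all genes, and none rose, with a median of -0.71. These were Ccl24, Cish, a feedback inhibitor of STAT5, from 2234 to 826, and Clec7a, the receptor for fungal glucans, from 622 to 269. Cish is listed at 6.78 relative to unchallenged macrophages with LPS and at 5.48 with LOC3 + LPS. Il4ra, the receptor of interleukin 4, was at -0.76, and its probes ran from -0.76 to 0.09. Of the acute phase and secreted defence genes Saa2 and Hp fell and Lcn2 rose, out of 21. The shares over all genes were 2.38% lower and 1.68% higher. Lcn2, which withholds iron from bacteria, was among the brightest genes, with 68833 on the LPS array and 128129 with LOC3, while Hp, the haemoglobin scavenger haptoglobin, was dim, at 80.9 and 24.5. Hp was within 2-fold with normexp, at -0.60, as was Clec7a at -0.95, and Lcn2 was within it after quantile normalization, at 0.86.

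Costimulatory and checkpoint genes moved in both directions. Slamf7 and Cd274 rose and Havcr2 fell, out of 14 compared, against 1.68% of all genes higher and 2.38% lower. Cd274, the ligand PD-L1 that restrains T cells, went from 9770.3 to 25908 and rose 2.85-fold, and it was listed at 6.58 relative to unchallenged macrophages with LPS and at 8.13 with LOC3 + LPS. Havcr2, the checkpoint receptor TIM-3, went from 186 to 49.1 and fell by 1.82, but with normexp it was at -0.99, within 2-fold. Of 27 phagocytic, scavenger and lectin receptors 3 fell, against 2.38% of all genes, and none rose. Fcgr3, the activating Fc gamma receptor III, was bright and went from 31223 to 10827, 2.68-fold lower, with both probes lower. Treml4, a receptor for dying cells, fell by 1.75 and was at -1.15 with normexp, and Clec7a was given above. Fcgr2b, the inhibitory Fc gamma receptor, was at -0.59. Among receptors for lipids and metabolites 2 of 18 rose and 2 fell, against 1.68% of all genes higher and 2.38% lower. Those that rose were the formyl peptide receptors, which guide phagocytes to bacteria. Fpr1 went from 960.3 to 2401 and Fpr2 from 4303 to 11861, 2.69-fold and 2.96-fold higher. P2ry6, the receptor for uridine diphosphate, went from 47718 to 17352 and fell by 1.36, and Gpr31b fell by 1.01 but was within 2-fold under median scaling, at -0.82.

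Feedback genes of the MAP kinase and G protein pathways held more rises than falls. Of 18 compared 4 rose and none fell, against 1.68% of all genes higher. Dusp10, a phosphatase of p38 and JNK, went from 115 to 336, 3.14-fold higher. Rgs2 went from 856 to 2296 and rose 2.88-fold, and it stayed under the level of unchallenged macrophages, listed at -3.46 with LPS and -1.89 with LOC3 + LPS. Gprc5a, an orphan receptor, rose by 1.33 and Rgs1 by 1.93. Dusp1, the early phosphatase of the LPS response, was at -0.23. Of 30 AP-1 and Egr genes Fosl1 and Nr4a1 rose and Fosl2 fell, against 1.68% of all genes higher and 2.38% lower. The intensity of Fosl1 was 88.9 with LPS and 174 with LOC3, and that of Fosl2 was 2731 and 1202. NF-kB subunits and inhibitors had a median of -0.05 over 25 genes, and Tnip3, an LPS-induced inhibitor that binds ubiquitin, was the one past 2-fold, from 19841 to 7724. Bcl3, a nuclear IkB protein, was at -0.84 and Irak3, a brake on TLR signalling, at 0.89. None of 25 genes of TLR signalling passed 2-fold, and Tlr4 was at -0.27. Among 23 growth factors and genes of the TGF-beta family, Inhba, Bmp2 and Tgif1 rose and Pdgfa fell. The shares over all genes were again 1.68% higher and 2.38% lower. Bmp2 went from 109 to 241, Tgif1, a repressor of SMAD signalling, from 9495 to 18877 and Pdgfa from 3853 to 1509. Bmp2 was within 2-fold with normexp, at 0.92, and Tgif1 for the mean of its probes, at 0.75.

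Targets of ATF4, the factor that answers shortage of amino acids and stress of the endoplasmic reticulum, had a high median among the gene lists. It was 0.43 over 28 genes, of which 24 were above 0 and 7 past 1.5-fold higher, against 6.34% of all genes, with none past 1.5-fold lower. The median was 0.30 relative to genes of like brightness and 0.32 after quantile normalization, and costimulatory genes, at 0.39 over 14 genes, then came out higher, at 0.42 and 0.44. Ddit3, which encodes CHOP, went from 782 to 1940.1 and rose by 1.42, but its other probe was at -0.07. Nupr1, a stress-induced chromatin protein, went from 9580.2 to 18267 and rose by 1.03, and it too had a dimmer probe under 0, at -0.32. For the mean of their probes Ddit3 was at 0.67 and Nupr1 at 0.36, both within 2-fold. Trib3, a pseudokinase, was at 0.89 and Sesn2, a leucine sensor, at 0.87. The unfolded protein response had a median of -0.01 over 25 genes, of which 2 rose, Ddit3 among them, and 1 fell. Over all genes 1.68% rose and 2.38% fell. Ppp1r15a, which restarts translation after stress, rose by 1.28 and Derl3, a part of the degradation channel, fell by 1.45. Of 19 genes of lipid droplets and fatty acid oxidation, Fabp4 and Fabp5, fatty acid carriers, rose, against 1.68% of all genes. Fabp5 was bright, at 27810.4 and 53516, and Fabp4 dim, at 161 and 435, and Fabp5 was within 2-fold after quantile normalization, at 0.92. Plin2, a coat protein of lipid droplets, was at 0.85. Sat1, the enzyme that breaks down spermine, went from 2274 to 5291 and rose 2.50-fold, while Nos2, the inducible nitric oxide synthase, was at 0.86 and Acod1, which makes itaconate, at 0.38.

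**Figure D4:**
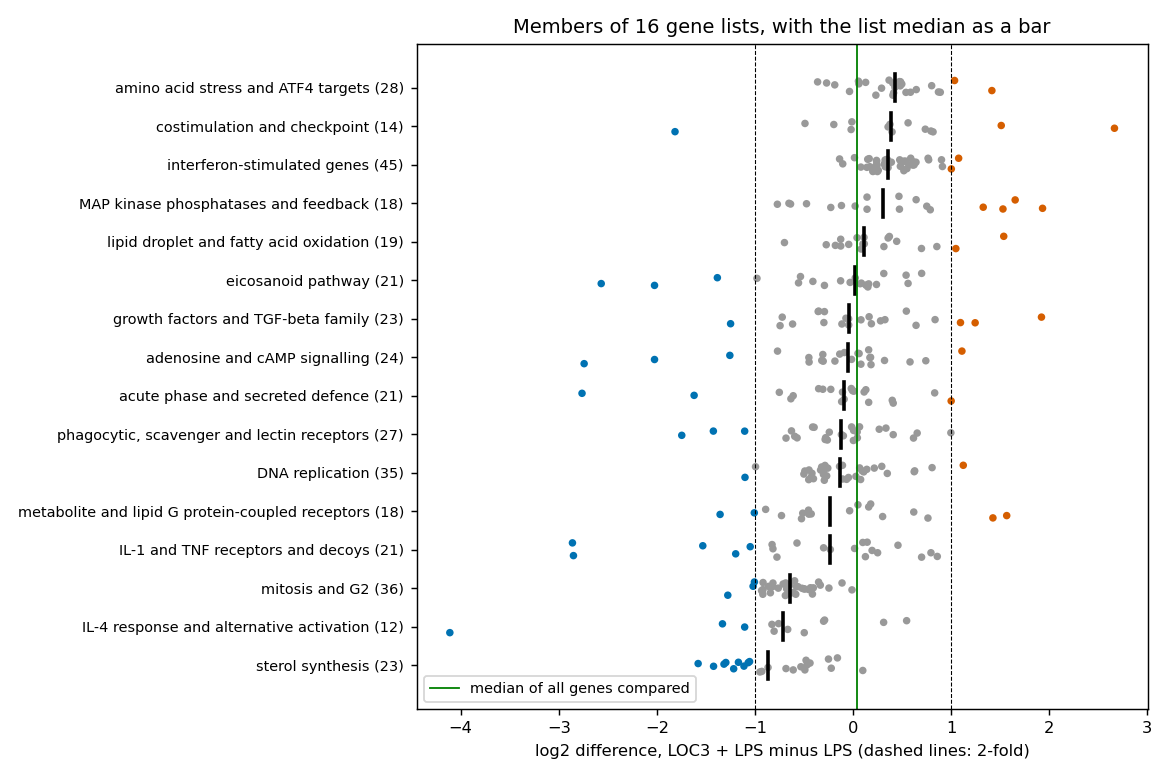
Log2 difference of every compared member of 16 gene lists (horizontal axis), with the median of each list as a black bar, the number of genes compared in brackets and the median of all genes as a green line. Sterol synthesis, the response to interleukin 4 and mitosis have the lowest medians, while ATF4 targets and costimulatory genes have the highest, in an order that turns after quantile normalization, and lists such as the eicosanoid pathway have a median near all genes and a few members far from it.

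Some gene families held several members that rose, and they were picked after their values had been seen. Over all genes 1.68% rose, and families picked in this way pass that share by choice. In the Ms4a family, membrane proteins encoded side by side on chromosome 19, 4 of 9 rose, against 1.68% of all genes. Besides Ms4a7 these were Ms4a6c, from 1847 to 4028, Ms4a6d, from 4569 to 8972, and Ms4a14, from 247 to 500.4. Ms4a4c, the brightest at 153169, was at 0.32. In the Ly6 family, small anchored surface proteins, Ly6a, Ly6c1 and Ly6c2 rose out of 9. Ly6a, known as Sca-1, went from 741 to 2140.4. Ly6c1 and Ly6c2 differ little in sequence and their intensities were close on each array, 1278 and 1259.6 with LPS and 3542 and 3527 with LOC3, so they may not be separate measurements. Of the Sprr genes, small proline-rich proteins best known from the skin, 4 of 10 rose, among them Sprr2d from 1563 to 3492. Klra2, Klra9 and Klrk1, lectin-like receptors, rose out of 5 of their kind. Klra2 went from 588 to 1804, with probes at 1.72 and 1.76, while Klra1 was at -0.91. The Sprr2 and Klra genes are also near-identical copies, and their probes can share signal. Medians of these families stayed above 0 under median scaling, quantile normalization, the percentile of detected probes and relative to genes of like brightness.

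Large classes of basic cell function held no gene past 2-fold. None of 92 genes named Rpl or Rps, nearly all cytosolic ribosomal proteins, 78 mitochondrial ribosomal proteins, 95 respiratory chain genes or 38 proteasome subunits passed it, and their medians were 0.12, 0.14, 0.16 and 0.23. These classes are bright, and the median of the brightest of the 4 equal groups of genes was 0.12. Of 15 reference genes, among them Actb at 0.08 and Gapdh at 0.31, none passed 2-fold, and the highest was Ywhaz at 0.32. Lysosomal genes, inflammasome and cell death genes, heat shock genes, integrins, metal handling genes, macrophage identity genes, antigen processing genes and chromatin regulators also had no member past 2-fold, over 42, 28, 17, 21, 18, 23, 18 and 24 genes. In the lists of NRF2 targets, glycolysis and autophagy at most 1 gene passed it in each direction. Ankrd37, a hypoxia target, was at -1.17 and Atg9a, which supplies autophagic membrane, at -1.21. Gstm1, a glutathione transferase of the NRF2 list, fell by 1.18 and Gsta3 rose by 1.15. Csf1r, the growth factor receptor that macrophages depend on, was at -0.70. Car2, carbonic anhydrase of osteoclasts, went from 3729.8 to 1189.9 and was 2.92-fold lower, 1 of 2 falls among 13 osteoclast genes. Of 24 matrix proteases and inhibitors Serpinb9, which inhibits granzyme B, and Serpina3g rose, by 1.24 and 1.22. Adamts4, an aggrecanase, was lower at -1.05. Beside these counts, 1.68% of all genes rose and 2.38% fell.

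LOC1, the other strain, was measured against the same LPS array, so that the differences of both strains from LPS share an array and are given only side by side. Medians with LOC1 were -1.07 for sterol synthesis, -0.59 for mitosis, 0.37 for interferon-stimulated genes and 0.49 for ATF4 targets, where LOC3 had -0.87, -0.64, 0.35 and 0.43. A direct comparison of the LOC3 + LPS and LOC1 + LPS arrays held few differences. Of 17579 genes, 68 were at least 2-fold higher with LOC3, 0.387%, and 37 at least 2-fold lower, 0.21%. Under the filters used for naming genes only 5 were left. Zfp12, a zinc finger protein, had an intensity of 534 with LOC3, 54.4 with LOC1 and 139.8 with LPS. Prox2, a homeobox factor, had 287, 73.8 and 97.6, with a dimmer probe that differed by only 0.18 between the strains. Comp had 293, 89.1 and 80.4 in the same order. Lower with LOC3 than with LOC1 were Ifna12, an interferon gene at 142 with LOC3, 378 with LOC1 and not well above background with LPS, and Rpgrip1l, a protein of the cilium, at 82.2, 199 and 69.9. Zfp12, Comp and Ifna12 rest on 1 probe each, and the Ifna genes are near-identical copies.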

How the data were processed

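Total RNA of RAW264.7 cells was labelled with Cy3 and hybridised to Agilent whole mouse genome arrays, 1 array a condition. The deposited scanner tables, extracted with Feature Extraction 12.0.3.1, give a background-subtracted intensity for each spot on a linear scale, and probe positions are on mm9. The authors also deposited log2 ratios of each array to unchallenged macrophages, listed only past 2-fold, and the submitters' processing notes name limma and R 3.2.5. The scale and sign of these ratios were checked against the scanner tables, and their differences matched those of the intensities apart from 1 constant. The array of unchallenged macrophages itself is not analysed here.

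From the intensities, control spots and spots with an outlier flag were left out, spots of a probe were averaged, and log2 values were centred on the 75th percentile of all non-control spots of their array. Probes well above background on both arrays were kept, and the brightest probe stood for each gene. Gene names are those of the array, and 877 of the 33767 probes matched by accession to the RefSeq table were renamed. Calls were made at 2-fold, and at 1.5-fold for lists. With 1 array a condition no test was run, and the smallest difference that replicates would separate is unknown. The 2-fold calls of single genes were run on simulated arrays with planted changes and spot noise alone. List counts and variation between cultures were not part of that run, which tests the script and not the conditions. Python 3.11.15 with numpy 2.4.6 and pandas 2.3.3, and limma 3.58.1 in R 4.3.3 for the normexp correction (offset 50), were used.

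Genes were named by rule, namely the 15 largest rises and the 15 largest falls among genes outside the dimmest of 4 equal groups whose probes all changed the same way, that have an approved symbol and that the study does not name for its arrays, then each member past 2-fold of a list described, and for LOC1 up to 10 genes in each direction. Members within 2-fold that are given for context, and the families Ms4a, Ly6, Sprr, Klr, H1, Id and Gbp, were chosen after their values were seen. The comparison and all lists were chosen with earlier results of these data known. Promoter sequences are from a RefSeq table of GRCm38.p6, which gave 32851 promoters for 27025 genes. A few genes that the lists count are not reported here by name.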

Additional observations from a re-analysis of the deposited data

Results flagged for a closer look

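Zfp12 moved in opposite directions with the strains, and the difference between the strains was not tested, since each was measured on 1 array. Relative to the LPS array it was at 2.04 with LOC3 and at -1.25 with LOC1, read by its only probe.

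Among genes well above background on the LOC3 + LPS array only, which the comparison leaves out, Hkdc1, a hexokinase-like protein, Lce3e, a protein of the cornified envelope of skin, and Robo4, an endothelial receptor, had the widest gaps. Their intensities were 460.5 for Hkdc1, 456 for Lce3e and 351 for Robo4 with LOC3, against at most 4.26 with LPS and at most 3.50 with LOC1. Set against the dimmest detected signal of the LPS array, Hkdc1 was at least 30.3-fold higher, Lce3e at least 30.02-fold and Robo4 at least 23.1-fold. Each of these values rests on 1 spot of 1 probe, and the other probe of Hkdc1 was detected on neither array.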

How the results depend on the processing

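No paired analysis was possible because each condition was measured on 1 array. Against 296 genes higher and 419 lower, the counts were 519 and 247 with arrays scaled by their medians, 154 and 133 with the normexp background correction, 161 and 135 from the deposited log2 ratios, 603 and 643 when a gene had to be well above background on only 1 array, with a floor, and 1684 and 2156 with no filter and no floor. They were 72 and 75 at 3-fold, and 386 and 821 over probes in place of genes. The other alternatives stayed within 1.5 times of these counts. Of the genes past 2-fold, 41.4% were higher, and this share was 67.8% under median scaling, 50.4% after quantile normalization, 53.7% with normexp, 54.4% from the deposited ratios and 34.6% with the percentile of detected probes. Single genes were checked for the 30 ranked genes and the members past 2-fold of the 16 lists whose medians were run again, 75 genes in all. These 75 kept their direction under every alternative that gave a value. Fewer than 2-fold were 10 under median scaling, 12 with normexp, 7 after quantile normalization and 7 relative to genes of like brightness. The last setting was chosen after seeing the data. Genes named from other lists, such as Fosl1, Tnip3 and Car2, were not checked in this way. Among them Fosl2 at -1.08, Ankrd37 at -1.17 and Adamts4 at -1.05 come within 2-fold with the upward shift of 0.18 under median scaling. The medians of 11 of 16 lists kept their sign under median scaling, sterol synthesis, mitosis, interferon-stimulated genes and ATF4 targets among them. No spot was saturated, so leaving out saturated probes changed nothing. Dim probes limit the rest, since a difference of a dim probe had a technical SD of 0.31.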

Other observations

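Among genes well above background on the LPS array only, 214 of 1793 were at least 2-fold higher there by the same kind of bound, and among those on the LOC3 + LPS array only, 296 of 486. These genes stand outside all counts of the comparison. Cx3cr1, the fractalkine receptor of monocytes and macrophages, had an intensity of 187 with LPS, 14.2 with LOC3 and 9.57 with LOC1, at least 8.75-fold lower with LOC3, and both of its probes were well above background with LPS. F13a1, a transglutaminase of alternatively activated macrophages, was at 187 with LPS, 9.58 with LOC3 and 3.19 with LOC1, at least 8.76-fold lower with LOC3, by 1 of its 3 probes. Ctnnal1, a catenin-like protein, was at 359 with LPS and 5.28 with LOC3, at least 16.9-fold lower, but only 1 of its 4 probes was well above background with LPS.

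Collagens, a class of gene names, had a median of -0.45 over 14 genes, with 11 under 0, and it stayed under 0, at -0.27, under median scaling. 1 of them rose, Col6a3 at 1.38, and 1 fell, Col16a1 at -1.29. The tRNA synthetases, which ATF4 helps to control, had a median of 0.26, with 15 of 16 above 0 and none past 2-fold.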
